A study of Mus musculus with 18 samples.

Results

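Poly-A RNA of the mouse substantia nigra was compared between 6 libraries titled SIRT3-overexpressed (genotype label AAV-SIRT3) and 6 titled intact (genotype label WT), which are 12 of the 18 libraries of the series. They were chosen by their titles, and all genes of the deposited table were used. The remaining 6 libraries, labelled AAV-GFP, received a vector (adeno-associated virus, AAV) carrying green fluorescent protein and are given beside the results as the vector control. All mice were 3 months old, each group held 6 mice, and tissue of the vector groups was taken a month after the virus. The labels give no strain, promoter or serotype, and name no sham injection for the intact mice. The contrast therefore holds the injection, the vector and SIRT3 together, and these cannot be told apart within it.

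SIRT3 is an NAD-dependent deacetylase of the mitochondrial matrix, whose known targets include subunits of the respiratory chain, enzymes of fuel oxidation and the superoxide dismutase of the matrix. The substantia nigra holds the dopaminergic neurons that project to the striatum, beside GABAergic output neurons, glia and vessels. Cells that sense viral nucleic acid release type I interferon, which switches on antiviral genes and the genes that present antigen on MHC class I. The question asked of the contrast was which functional classes of genes make up its broad change.

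Expression is given as the deposited normalised read count of a gene in a library. A gene is called higher or lower when its adjusted p (limma on log2 values, Benjamini-Hochberg) is under 0.05, and fold changes are log2 differences of AAV-SIRT3 minus intact. Depth recovered from the values ran from 47.2 to 61.2 megareads in the 12 libraries. The mouse gene Sirt3 (chr7:140863666-140882309, minus strand, GENCODE M21, GRCm38) ran from 1733 through a median of 1823 to 1920 in intact libraries and from 1801 through 1953 to 2041 in AAV-SIRT3 libraries. The groups overlapped, the difference of 6.21% had an exact two-sided permutation p of 0.0325, and it was not called across all genes (log2 fold change 0.09, SE 0.042, adjusted p = 0.148). Whether reads of the delivered SIRT3 were counted under this gene was not tested. Sirt3 overlaps its neighbours Ric8a (140856957 to 140864372) and Psmd13 (140881968 to 140898643) on the opposite strand, and the strand setting of the counting is not given in the sources used here. Both neighbours were called higher, Psmd13 by 0.17 and Ric8a by 0.13. Leaving out 1 library ended the call of Psmd13 in 6 of 18 fits (intact 1, 2 or 4, AAV-SIRT3 3, 5 or 6) and that of Ric8a in 4 (intact 1 or 5, AAV-SIRT3 3 or 5), with adjusted p up to 0.152 and 0.216 over all alternatives. The summed level of 6 dopaminergic markers ran from 24151 to 35820 in intact and from 24838 to 29754 in AAV-SIRT3 libraries, so the labelled tissue was present in every library.

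Libraries differed in ways that touch the results. AAV-SIRT3 replicate 6 stood apart in interferon and MHC class I genes, and the values without it are given beside those classes. It also had the lowest level of long genes among the AAV-SIRT3 libraries (median log2 deviation from the intact mean of -0.28 for transcripts of 8 kb or more) and the highest complex I level (0.43). Without it complex I had 33 genes higher (median 0.23) and the cytosolic ribosome 71 (0.24). The summed level of 4 thalamic markers ran from 13328 to 39509 in intact and from 30428 to 42217 in AAV-SIRT3 libraries. In bulk tissue, fewer cells of a type and less RNA per cell cannot be told apart.

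Of 19442 genes tested, 4214 were called (21.7%), 2206 of them higher (11.3%) and 2008 lower (10.3%). The libraries of the groups did not overlap in 1814 genes (9.33%), 975 higher (5.01%) and 839 lower (4.32%). The changes were small: the median gene called higher rose 1.16-fold, the median gene called lower fell to 0.808 of its intact level, and 652 called genes (3.35%) differed at least 1.5-fold. Of these 652, 154 were higher and 498 lower, and 262 of the lower genes had a mean under 50 normalised reads. Protein-coding genes made up most genes tested and most calls in each direction, with 2049 of 15240 higher (13.4%) and 1552 lower (10.2%). Genes annotated as antisense were called lower in 93 of 847 (11%, near the 10.3% of all genes tested) and higher in 9 (1.06%). Genes of the annotation class TEC, transcripts still to be verified by experiment, were lower in 131 of 673 (19.5%) and higher in 24 (3.57%). The split by direction depended on how a trend with transcript length was removed from each library. A robust fit, which keeps the median of each library, gave 1540 higher and 1326 lower. A least-squares fit, which also sets the mean deviation of each library to 0, gave 3220 higher and 1009 lower. For comparison, AAV-GFP against the same intact libraries gave 358 calls (1.84%), with 0.823% of genes higher and 1.02% lower. AAV-SIRT3 against AAV-GFP gave 22 calls (0.113%), with 0.036% higher and 0.0772% lower.

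The genes with the smallest p among clear changes (at least 1.5-fold, mean of at least 50, no overlap) were led by Banp, a nuclear protein that binds unmethylated CGCG elements in promoters. Banp ran from 650 through a median of 763.2 to 804.3 in intact and from 1124 through 1357 to 1480 in AAV-SIRT3 libraries, a log2 fold change of 0.81 (SE 0.081, adjusted p = 3.18e-05). Every AAV-SIRT3 library lay above every intact one, and Banp also differed from AAV-GFP by 0.60 (adjusted p = 0.00228). Of the other 9 rises, Ifit3, Ifit3b, Bst2, Oasl2, Usp18 and Ifi27l2a are interferon-stimulated genes, and the others were Marchf11 (log2 fold change 0.73), Fam83d (0.98) and Adgrf4 (0.78). Marchf11, a membrane-bound ubiquitin ligase, also differed between AAV-GFP and intact, by 0.59 (adjusted p = 0.0162). In all, 19 rises and 60 falls met this rule.

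The falls of the same rule were led by Adamts1, a secreted protease that cleaves proteoglycans. Its count ran from 970 through 1109 to 1304 in intact and from 596.7 through 675.2 to 791 in AAV-SIRT3 libraries, with no overlap, a log2 fold change of -0.70 (SE 0.080, adjusted p = 0.000153) and a difference from AAV-GFP of -0.52 (adjusted p = 0.00991). Fbn1, the fibrillin of extracellular microfibrils, fell by 0.59, Sned1, another matrix protein, fell by 0.61, and Col19a1, a collagen of basement membranes, fell by 0.87. Fat4, a giant cadherin of planar polarity, fell by 0.73 and Atm, the kinase that senses double-strand DNA breaks, fell by 0.60. The transcription regulators Zbtb37, Zbed6 and Creb5 fell by 0.76, 0.73 and 0.60, and the antisense gene Mypopos fell by 1.09. For Mypopos, reads of the antisense gene and of its partner cannot be assigned with certainty, because the strand setting is not known.

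**Figure D1:**
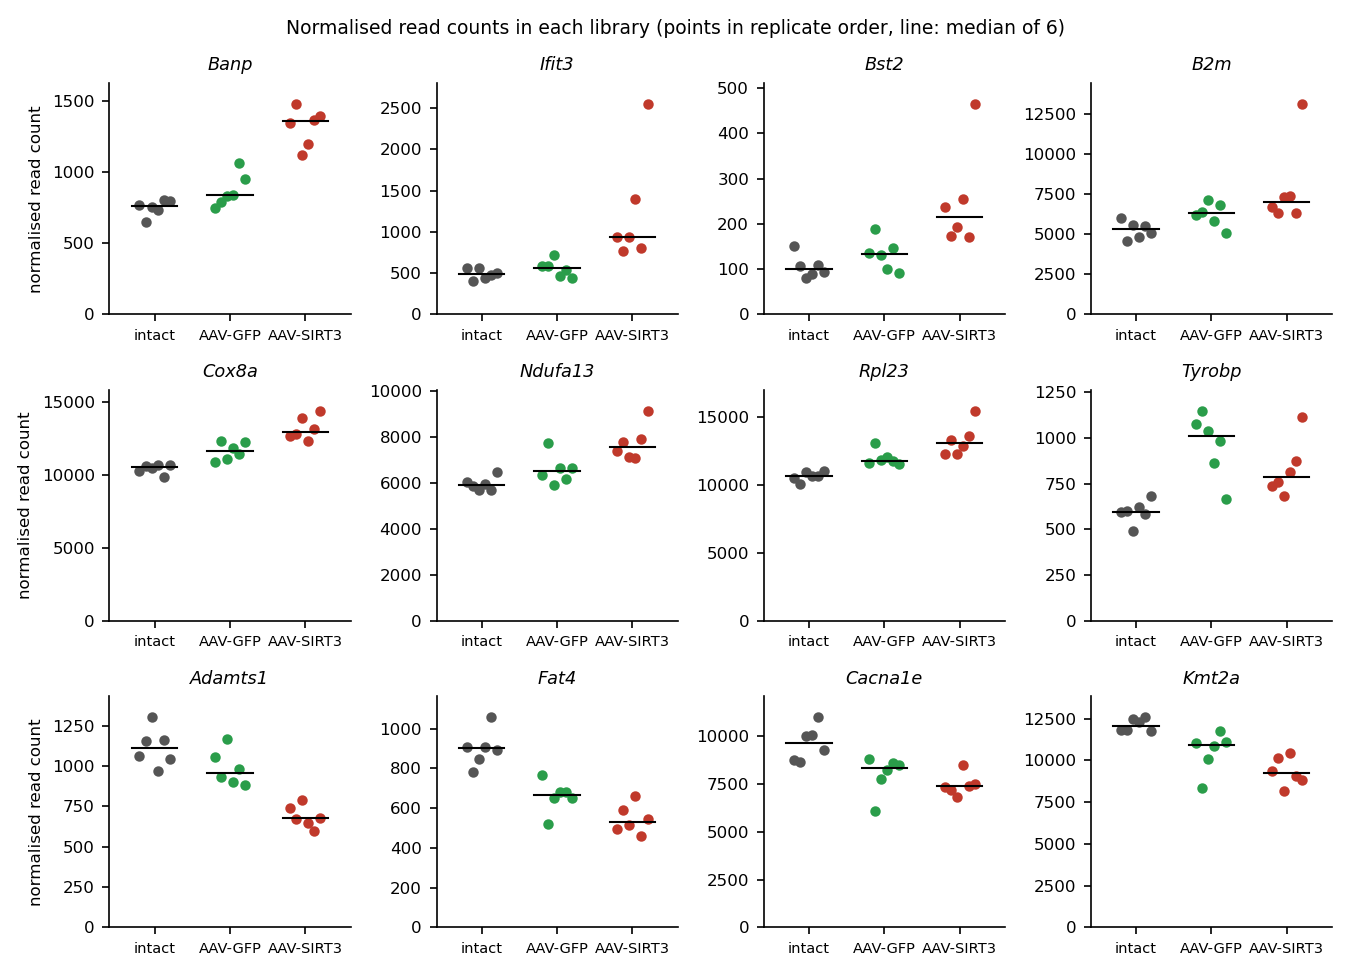
Normalised read count of 12 genes in each of the 18 libraries, with a line at the median of each group of 6 and points in replicate order. AAV-SIRT3 libraries lie above all intact libraries for Banp, Ifit3, Bst2, B2m, Cox8a, Ndufa13 and Rpl23, and below them for Adamts1, Fat4, Cacna1e and Kmt2a, while Tyrobp overlaps between those groups.

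To describe the breadth, 49 functional classes holding 1804 tested genes were examined, which contain 429 of the higher and 233 of the lower genes, or 15.7% of all calls. The remaining 1777 higher and 1775 lower genes lay outside the classes. Over all genes tested the median log2 fold change was -0.005, with 11.3% called higher and 10.3% lower. The libraries did not overlap in 5.01% of genes as higher and in 4.32% as lower. The counts of each class below are to be read beside these shares.

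**Figure D2:**
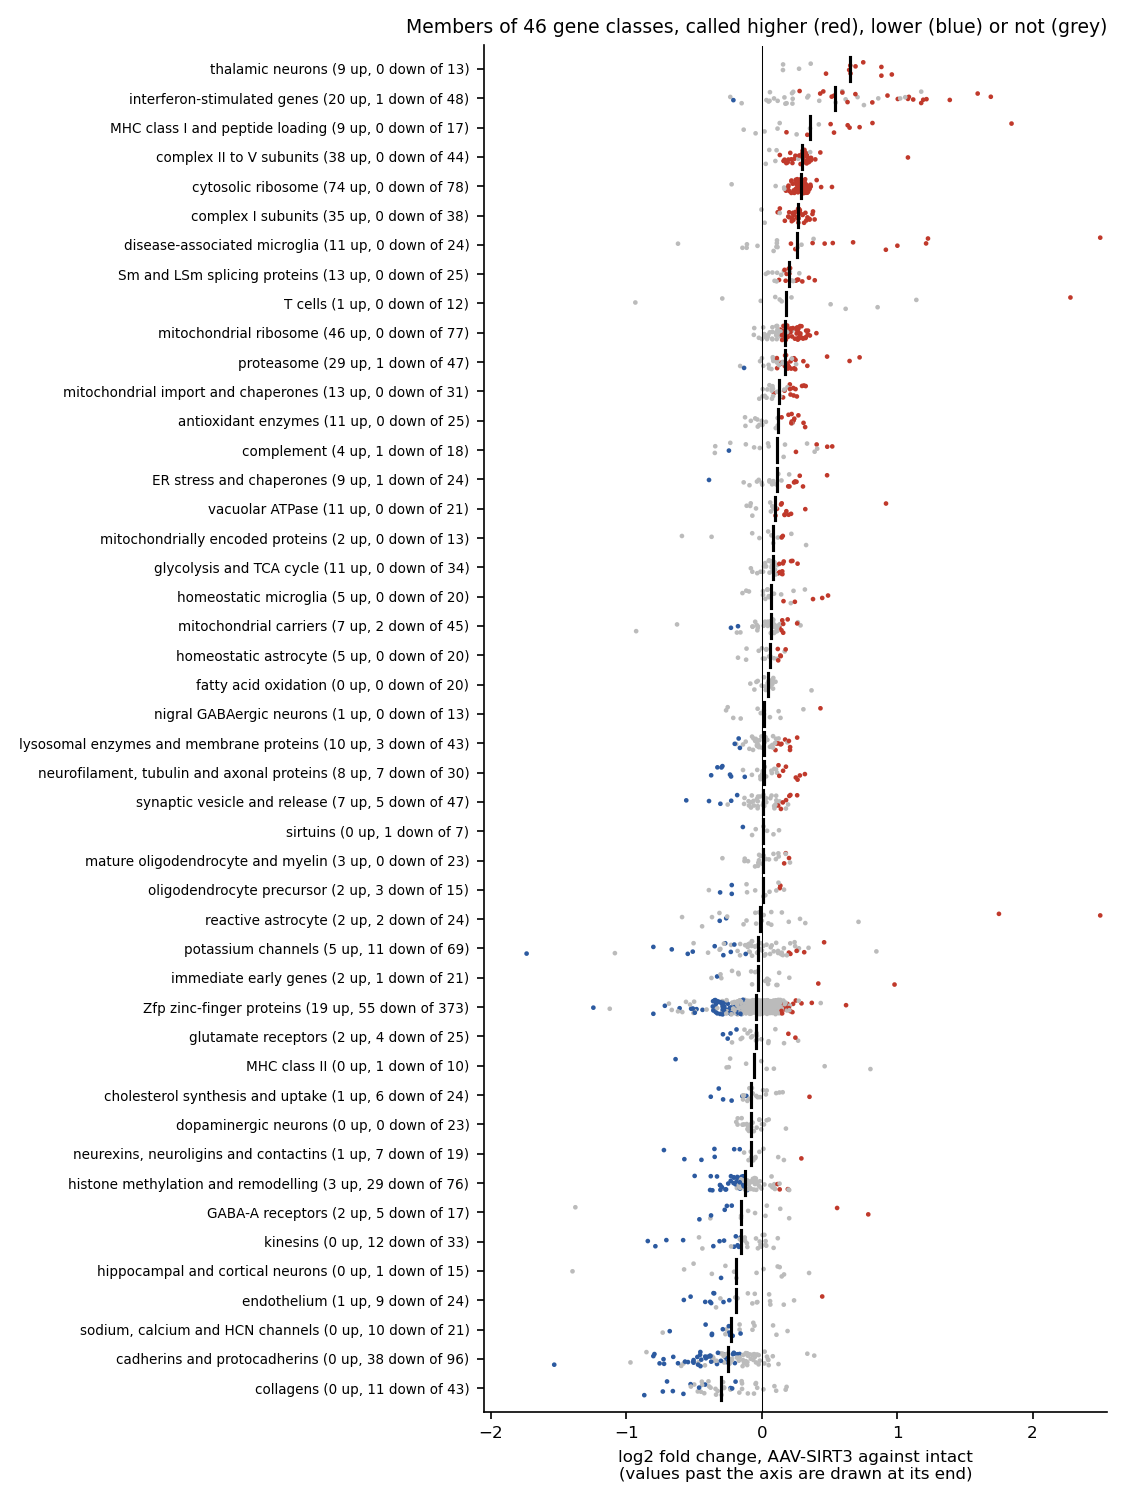
Log2 fold change of AAV-SIRT3 against intact for each tested member of 46 classes, ordered by class median (black bars), with called genes in red or blue. Respiratory chain and ribosomal proteins form narrow groups to the right of 0, interferon-stimulated genes spread widely to the right, and cadherins and collagens spread to the left.

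Nuclear-encoded subunits of the respiratory chain and ATP synthase, which oxidise NADH and make ATP in the inner mitochondrial membrane, were higher almost throughout. Of 38 complex I subunits, 35 were called higher and 0 lower (median log2 fold change 0.27), and of 44 subunits of complexes II to V, 38 were higher and 0 lower (median 0.30), against 11.3% of all genes tested. The complex I subunit at the low end, Ndufb2, was at 0.00 and changed sign between settings. The libraries of the groups did not overlap in 26 of the 38 and in 26 of the 44, all higher, against 5.01% of all genes tested. Against AAV-GFP the medians were 0.14 and 0.16 with 0 calls in either class, and AAV-GFP against intact gave 0.12 and 0.13 with 0 and 1 genes higher.

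Cox8a, a small subunit of cytochrome c oxidase, ran from 9853 through 10549 to 10657 in intact and from 12299 through 12955 to 14398 in AAV-SIRT3 libraries (log2 fold change 0.34, SE 0.042, adjusted p = 0.000157). Uqcrb, a subunit of complex III, ran from 3301 through 3393 to 3653 in intact and from 4150 through 4365 to 4809 in AAV-SIRT3 libraries (0.36, SE 0.045, adjusted p = 0.000157). Neither gene had an AAV-SIRT3 library within the intact range. Ndufa13, a complex I subunit needed for its assembly, ran from 5671 through 5905 to 6450 in intact and from 7083 through 7571 to 9134 in AAV-SIRT3 libraries (0.38, SE 0.062, adjusted p = 0.000701). Ndufa12, Ndufs8 and Ndufa5 rose by 0.27, 0.30 and 0.35, and Cox5b and the ATP synthase subunit Atp5md by 0.40 and 0.35. The largest values of the 2 classes were those of Ndufa11 (0.39), also a complex I subunit, and of Cox6a2 (1.08), the muscle and neuron isoform of cytochrome c oxidase subunit 6a. Cox6a2 overlapped between the groups, with 122.6 to 375.3 in intact and 362.9 to 463.2 in AAV-SIRT3 libraries.

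The 13 protein-coding genes of the mitochondrial genome did not follow the nuclear subunits. Their median was 0.08 and 2 were called higher (15.4%, near the 11.3% of all genes tested), mt-Nd6 by 0.16 and mt-Nd4 by 0.15. Both encode subunits of complex I. The call of mt-Nd6 was lost without intact 4, 5 or 6 or AAV-SIRT3 2, 3, 4 or 5, with adjusted p up to 0.562 over all alternatives. That of mt-Nd4 was lost without intact 1 to 4, AAV-GFP 3, 5 or 6, or AAV-SIRT3 1, 2, 3, 5 or 6, with adjusted p up to 0.537. After removal of the length trend the class median was -0.02 with 0 calls. The libraries were made from poly-A RNA, and how well each mitochondrial transcript is captured in them was not tested. As the strand setting of the counting is not known, reads of mt-Nd6 cannot be assigned to its strand with certainty.

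Other mitochondrial machinery rose in part. Of 77 tested proteins of the mitochondrial ribosome, which makes the 13 proteins encoded in the organelle, 46 were higher and 0 lower (median 0.17), and Mrps6 (0.40), Mrpl12 (0.32) and Mrpl51 (0.27) were among them. Of 31 import and chaperone genes 13 were higher (median 0.13), including Tomm40, the pore of the outer membrane (0.25), its receptor Tomm22 (0.23) and Timm10, a carrier chaperone between the membranes (0.33). Of 25 antioxidant enzymes 11 were higher (median 0.12), including the glutathione peroxidases Gpx4, which reduces lipid peroxides (0.32), and Gpx1 (0.31), the mitochondrial thioredoxin Txn2 (0.23) and the peroxiredoxin Prdx2 (0.22). None of these 3 classes held a gene called lower.

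Enzymes of fuel use moved less than the chain they feed. In glycolysis and the TCA cycle 11 of 34 genes were higher and 0 lower (median 0.08), among them Suclg1 (0.23), Ldhb (0.27) and Mdh1 (0.22), which carry out steps of succinate, lactate and malate conversion. The class had 17 higher without intact 1, 6 without intact 2 or 3 or AAV-SIRT3 6, and 7 without intact 4 or 5 or AAV-SIRT3 5. Of 20 genes of fatty acid oxidation 0 were called in either direction with a median of 0.05. On recovered reads edgeR called 0 and DESeq2 1 higher, and the median was -0.02 with the length trend removed. Of 45 mitochondrial carriers 7 were higher (15.6%) and 2 lower (4.44%), against 11.3% and 10.3% of all genes tested. The adenine nucleotide exchangers Slc25a4 and Slc25a5 were both at 0.16. Among the 7 sirtuins, 0 were called higher and Sirt1, the nuclear deacetylase, was called lower (-0.14, adjusted p = 0.0443). That call was lost without intact 2 to 6, AAV-GFP 3 or 4, or AAV-SIRT3 1, 2, 3, 4 or 6, with adjusted p up to 0.289.

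Cytosolic ribosomal proteins made the most uniform class. Of 78 tested, 74 were higher (94.9%, against 11.3% of all genes tested) and 0 lower (median 0.29). The libraries did not overlap for 64, all higher, against 5.01% of all genes tested. Rpl23 ran from 10034 through 10601 to 11033 in intact and from 12225 through 13042 to 15439 in AAV-SIRT3 libraries (0.32, SE 0.048, adjusted p = 0.000546), without overlap, and Rpl21 and Rpl34 both rose by 0.36. Ribosomal protein genes have many near-identical pseudogenes, and the counting could split their reads: Rps10 was listed at only 72.39 to 120.2 normalised reads over the 12 libraries, and its value of -0.22, which was not called, is uncertain for that reason. Rpl24, the largest value of the class at 0.52, was listed at 38.61 to 95.64 and is uncertain too, and its call was lost without intact 2, 3 or 6 or AAV-SIRT3 1, 2, 3, 5 or 6 (adjusted p up to 0.117). The class level, the median over members of the log2 difference from the intact mean, ran from -0.05 to 0.05 in intact, from 0.08 to 0.35 in AAV-GFP and from 0.18 to 0.55 in AAV-SIRT3 libraries.

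Protein degradation and RNA processing followed in the same direction. Of 47 proteasome genes 29 were higher and 1 lower (median 0.17), with the core subunits Psmb2 at 0.25 and Psma6 at 0.22, and the lower gene was Psmd1, a base subunit of the regulatory cap, at -0.13. That call was lost without intact 1, 3 or 6 or AAV-SIRT3 1, 2, 5 or 6 (adjusted p up to 0.386). The immunoproteasome subunits that replace core subunits under interferon, Psmb8 (0.65), Psmb9 (0.72) and Psmb10 (0.34), were called higher, and the call of Psmb9 was lost without intact 3, 4 or 5 or AAV-SIRT3 1 or 6 (adjusted p up to 0.0794). Of 25 Sm and LSm proteins, which form the core of splicing particles, 13 were higher and 0 lower (median 0.20), with Lsm3 at 0.39 and Snrpd1 at 0.27. Of 21 genes of the vacuolar ATPase, the proton pump of lysosomes and synaptic vesicles, 11 were higher and 0 lower (median 0.10), with Atp6v1f at 0.32 and Atp6v1g1 at 0.20.

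Lysosomal and secretory genes were divided. Of 43 lysosomal genes 10 were higher and 3 lower (median 0.02), with the growth factor precursor Grn at 0.20 and the sterol carrier Npc2 at 0.21. Its membrane partner Npc1 was called lower (-0.16), a call lost without intact 1, 3 or 4, AAV-GFP 1, 4, 5 or 6, or AAV-SIRT3 1, 3, 5 or 6 (adjusted p up to 0.427). Without AAV-SIRT3 6, 3 lysosomal genes were higher and 2 lower, and 4 to 6 were higher without intact 2, 3, 4, 5 or 6 or AAV-SIRT3 2 or 3. Of 24 genes of ER stress and folding 9 were higher and 1 lower (median 0.11). AAV-GFP against intact gave a median of 0.15 with 2 higher and 1 lower, and AAV-SIRT3 against AAV-GFP gave -0.02 with 0 calls. Herpud1, a factor of ER-associated degradation, rose by 0.28, Atf4 and Xbp1, transcription factors of the unfolded protein response, rose by 0.26 and 0.25, and Manf, a secreted ER-stress protein with trophic action on dopaminergic neurons, rose by 0.30. The lower gene was Ern1, the kinase and nuclease that splices Xbp1 mRNA, which fell by 0.39 and did not overlap between groups. Cholesterol genes gave 6 of 24 lower and 1 higher (median -0.08), and 3 lower without intact 1 or AAV-SIRT3 5. The cyclase Lss fell by 0.22 and the phosphomevalonate kinase Pmvk rose by 0.35. In AAV-GFP against intact the cholesterol median was -0.14 with 4 lower, and AAV-SIRT3 against AAV-GFP gave 0.09 with 0 calls.

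Interferon-stimulated genes had the largest median of all classes other than thalamic, pituitary, choroid plexus and red cell genes. Of 48 tested, 20 were higher and 1 lower, with a median of 0.54. In AAV-GFP against intact the same class had a median of 0.05 with 0 calls in either direction, and against AAV-GFP the median was 0.44. Short sequences upstream of these genes are shown because many carry the interferon-stimulated response element (ISRE), searched as GAAA, any pair of bases and GAAA again on both strands in RefSeq promoter windows of GRCm38.p6, from 250 bases before to 50 after the gene start. Capitals mark matches, overlapping ones merged, and each line reads 5′ to 3′ on the strand of the gene. Ifit3 encodes an RNA-sensing partner of the IFIT complex, Bst2 encodes tetherin, which holds budding virus on the cell, and Isg15 encodes a ubiquitin-like modifier.
Ifit3, chr19:34583353-34583436, plus strand: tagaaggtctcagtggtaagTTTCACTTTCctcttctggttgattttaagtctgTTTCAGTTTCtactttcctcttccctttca
Bst2, chr8:71537567-71537622, minus strand: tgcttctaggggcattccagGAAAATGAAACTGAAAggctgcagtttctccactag
Isg15, chr4:156200855-156200916, minus strand: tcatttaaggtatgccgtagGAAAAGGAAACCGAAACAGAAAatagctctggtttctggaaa

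The window of Ifit3b, at chr19:34607749-34607832 on the plus strand, holds the same 84 bases as that of Ifit3, and as the pair are near copies their reads may be shared between them. An ISRE match was present in 19 of the 33 interferon-stimulated genes with a promoter entry (57.6%), against 3.68% of 13381 tested genes with an entry. Of the 19 with a match 9 were called higher (median 0.60), and of the 14 without one 6 were (median 0.31). Of the MHC class I genes, the 4 with a match had 2 higher (median 0.22) and the 10 without one 6 (median 0.47). Among all genes called higher 4.41% had a match, and among genes called lower 3.29%. These are descriptions of letters in a window and say nothing about factors bound there.

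Ifit3 ran from 410.6 through 491.7 to 567.3 in intact and from 772.9 through 941.3 to 2551 in AAV-SIRT3 libraries, a log2 fold change of 1.19 (SE 0.21, adjusted p = 0.000936). The highest value was that of replicate 6, but the other 5 AAV-SIRT3 libraries also lay above all intact ones, and Ifit3 differed from AAV-GFP by 1.03 (adjusted p = 0.0487). Bst2 ran from 80.1 through 99.92 to 151 in intact and from 170.9 through 215.3 to 464.7 in AAV-SIRT3 libraries (1.18, SE 0.22, adjusted p = 0.00126), again without overlap. Oasl2, of the family of oligoadenylate synthetases, ran from 280.1 through 340.9 to 474 in intact and from 493.5 through 580.2 to 1896 in AAV-SIRT3 libraries (1.09, SE 0.24, adjusted p = 0.00382), and differed from AAV-GFP by 1.22 (adjusted p = 0.0487). Ifit3b (1.00), Usp18, the protease that removes ISG15 (1.22), Ifi27l2a (1.60), Ifi44 (1.39), Isg15 (0.93) and the RNA-sensing enzyme Oas1a (1.69) were called higher as well. The lower gene of the class was Samhd1, which depletes nucleotides needed by retroviruses, at -0.21.

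MHC class I genes, which display peptides to cytotoxic T cells, rose with them: 9 of 17 were higher and 0 lower (median 0.36). B2m, the invariant light chain, ran from 4550 through 5304 to 5980 in intact and from 6303 through 7002 to 13103 in AAV-SIRT3 libraries (0.53, SE 0.13, adjusted p = 0.00659), and the heavy chain H2-D1 (0.64) and Nlrc5, the transactivator of the class (0.82), were higher. H2-Q7, the largest value of the class at 1.84, was low in counts, with 0 to 10.27 in intact and 8.577 to 56.26 in AAV-SIRT3 libraries, and H2 genes are near copies of each other. The class level was 1.32 in AAV-SIRT3 replicate 6 and from 0.19 to 0.35 in the other 5. It ran from -0.13 to 0.09 in intact and from -0.05 to 0.25 in AAV-GFP libraries, so both vector groups overlapped. In AAV-GFP against intact the MHC class I median was 0.08 with 0 calls. Against AAV-GFP the median of AAV-SIRT3 was 0.28, also with 0 calls. Without replicate 6, the MHC class I median was 0.16 with 7 genes higher, and the interferon median was 0.36 with 17 higher and 1 lower. Of 12 T cell genes tested 1 was called higher (8.33%, against 11.3% of all genes tested), Ccl5, a chemokine (2.28). A summed level of 6 T cell markers was measured beside these results. It ran from 195.8 to 257.7 in intact and from 237.6 to 304.9 in AAV-SIRT3 libraries, with Cd3d at a median under 1. The part of T cells in the interferon and MHC class I results was not tested.

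**Figure D3:**
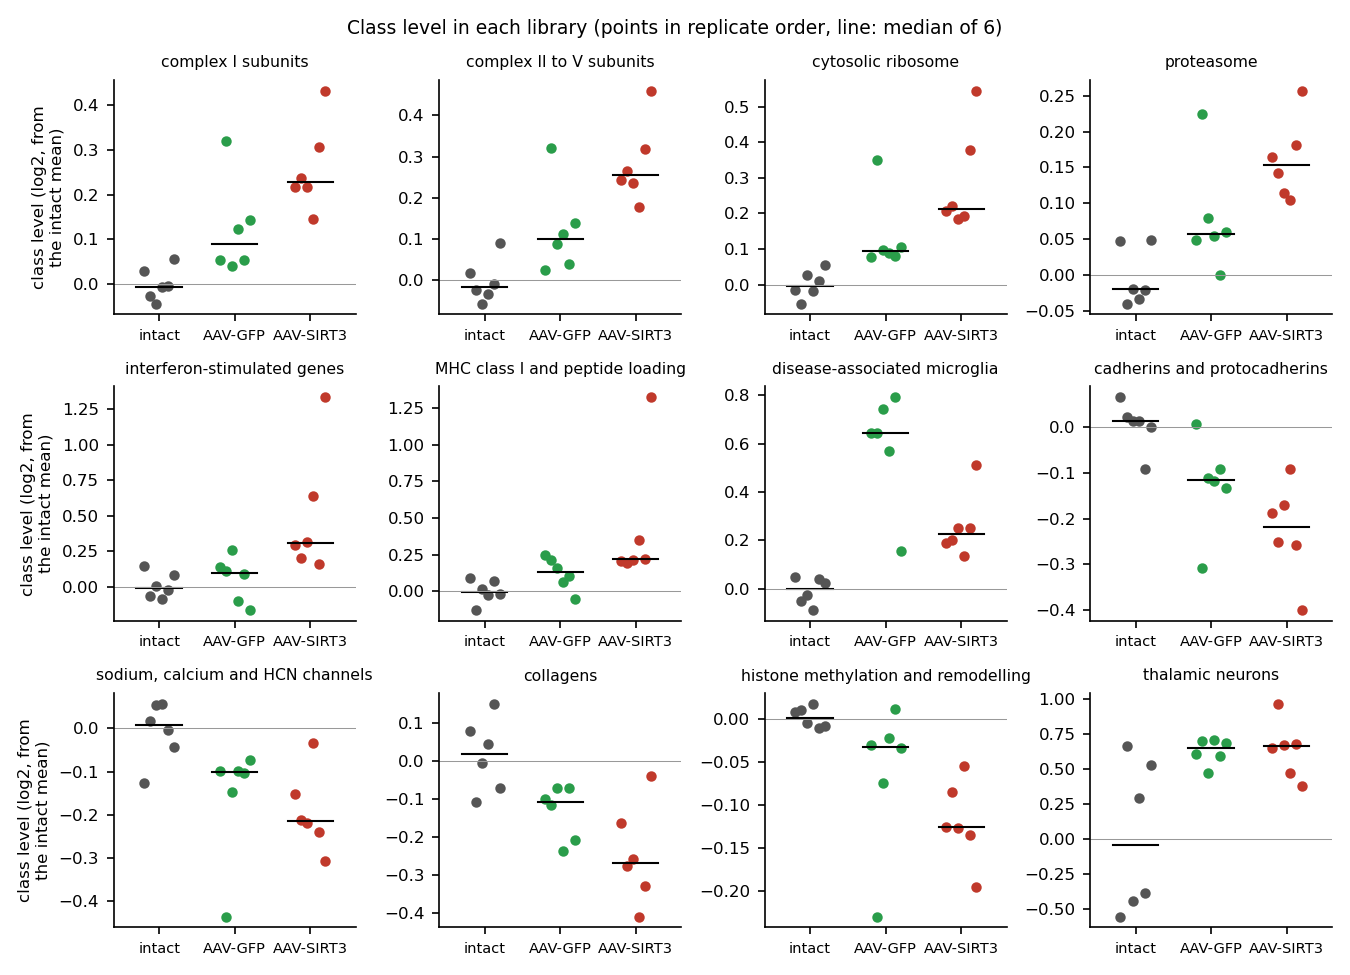
Class level (median over members of the log2 difference from the intact mean) in each of 18 libraries for 12 classes, with points in replicate order and a line at the group median. The MHC class I level of AAV-SIRT3 replicate 6 reaches 1.32 and its interferon level is the highest of all libraries, disease-associated microglial genes have their highest group median in AAV-GFP, and the thalamic level is split within the intact group.

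Microglial genes rose in both vector groups. Of 24 genes of disease-associated microglia, a state linked to phagocytosis of debris, 11 were higher and 0 lower in AAV-SIRT3 (median 0.26), and 17 were higher in AAV-GFP (median 0.55), each against the same intact libraries. Ctss, a lysosomal protease of microglia, ran from 4219 through 4354 to 4859 in intact and from 5409 through 5758 to 7676 in AAV-SIRT3 libraries (0.45, SE 0.081, adjusted p = 0.00117), without overlap. Tyrobp, the signalling adaptor of TREM2, overlapped slightly, with 491.4 through 597.4 to 684.6 in intact and 681.4 through 788.3 to 1112 in AAV-SIRT3 libraries (0.46, SE 0.12, adjusted p = 0.00928), Apoe rose by 0.22 and the lymphoid surface gene Cd52 by 0.68. Cst7, a cystatin used as a marker of this state, was at most 13.72 in intact and 9.676 to 50.63 in AAV-SIRT3 libraries (2.64), and its value in AAV-GFP against intact was 4.51. Of the complement genes 4 of 18 were higher (median 0.11), and in AAV-GFP against intact 7 were (median 0.28). The 4 included the 3 chains of C1q, which starts the classical cascade: C1qa rose by 0.52, C1qb by 0.48 and C1qc by 0.41. Cd55, an inhibitor of the cascade, was called lower (-0.24), a call lost without intact 2, 3 or 4 or AAV-SIRT3 2, 3 or 6 (adjusted p up to 0.21). Without replicate 6, the disease-associated median was 0.17 with 8 genes higher and the complement median 0.07 with 3 higher.

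General microglial markers changed less, with 5 of 20 homeostatic genes higher and 0 lower (median 0.07). Aif1 (0.49), Tmem119 (0.38) and the Fc receptor Fcgr3 (0.52) were higher. MHC class II genes, which present antigen to helper T cells, gave 0 higher of 10 (median -0.06). Ciita, their transactivator, was called lower (-0.64), a call lost without intact 1, 2, 3, 4 or 6, AAV-GFP 1, 3 or 4, or AAV-SIRT3 1, 3, 4 or 5 (adjusted p up to 0.119). Of 24 genes of reactive astrocytes 2 were higher and 2 lower, 8.33% each, with a median of -0.01. Neither share was above the 11.3% and 10.3% of all genes tested. In AAV-GFP against intact 4 of this class were higher and 0 lower (median 0.35), and AAV-SIRT3 against AAV-GFP gave 1 lower (median -0.39). Lcn2, a secreted iron-binding protein of inflamed tissue, was called higher at 2.89 with 2.745 to 22.96 in intact and 14.3 to 321.7 in AAV-SIRT3 libraries, and the groups overlapped. Its call was lost without intact 1 to 5, AAV-GFP 1, 3 or 4, or AAV-SIRT3 1, 2 or 4 (adjusted p up to 0.28). The astrocyte filament Gfap ran from 14204 to 21766 in intact and from 14750 to 20954 in AAV-SIRT3 libraries and was not called (-0.05, adjusted p = 0.822), while it was called in AAV-GFP against intact (0.50, adjusted p = 0.0388). Of 23 oligodendrocyte and myelin genes 3 were higher (13%), near the 11.3% of all genes tested, with a median of 0.01. Among them were Cldn11 (0.20) and Mobp (0.18). Of 20 genes of homeostatic astrocytes 5 were higher (25%), with the glutamine synthetase Glul at 0.18. The astrocyte count was 2 without intact 1 or AAV-SIRT3 2 and 3 without intact 2, and the calls of Glul and Mobp were lost with quantile normalisation (adjusted p = 0.125 and 0.102).

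The classes that fell were made of cell-surface, matrix, channel and chromatin proteins. Cadherins and protocadherins, which hold neurons and synapses together, were lower in 38 of 96 and higher in 0 (median -0.25), against 10.3% of all genes called lower. In AAV-GFP against intact the cadherin median was -0.15 with 5 genes lower. Pcdhac2, of the clustered protocadherins, ran from 1150 through 1284 to 1589 in intact and from 830.4 through 946.7 to 1035 in AAV-SIRT3 libraries (-0.50, SE 0.095, adjusted p = 0.00145), and Pcdh15 was at -0.38 (adjusted p = 0.00152), both without overlap. Among the clustered protocadherins, the genes of the alpha cluster share constant exons, as do those of the gamma cluster, so counts within each of these clusters are not independent. Pcdhb1, the lowest value of the class at -1.53, was low in counts (3.66 to 19.98 in intact, 0.9191 to 11.25 in AAV-SIRT3 libraries), and its call was lost without intact 2 to 6, AAV-GFP 4 or 5, or AAV-SIRT3 1, 2, 3 or 5 (adjusted p up to 0.167). Of 19 neurexins, neuroligins and contactins 7 were lower and 1 higher, with Cntnap5b at -0.72 and the postsynaptic adhesion gene Nlgn3 at 0.29, and without AAV-SIRT3 6 it was 4 lower.

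Voltage-gated sodium, calcium and HCN channels, which set pacemaking in nigral neurons, were lower in 10 of 21 and higher in 0 (median -0.23). Cacna1e, a calcium channel, ran from 8680 through 9656 to 11008 in intact and from 6812 through 7374 to 8507 in AAV-SIRT3 libraries (-0.37, SE 0.076, adjusted p = 0.00235). Cacna1d, the L-type channel of dopaminergic pacemaking, ran from 2187 through 2531 to 2731 in intact and from 1755 through 1926 to 2140 in AAV-SIRT3 libraries (-0.37, SE 0.067, adjusted p = 0.00118). Neither overlapped, and without AAV-SIRT3 6 the class had 6 lower and 1 higher. Potassium channels gave 11 of 69 lower (15.9%) and 5 higher (7.25%), shares near those of all genes tested (10.3% and 11.3%). Kcnj6, the GIRK2 channel of dopaminergic neurons, was at -0.66 and Kcna1 at -0.55, while Kcna6 rose by 0.21. Kcnj13, a channel of choroid plexus epithelium, was at -1.74, and its call was lost without intact 2, 4, 5 or 6 or AAV-SIRT3 2, 3, 4 or 5 (adjusted p up to 0.0948).

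Most genes of receptors and release proteins were not called. Glutamate receptors had 4 of 25 lower and 2 higher, again near the shares of all genes, with the AMPA subunit Gria2 at -0.29 (adjusted p = 0.0068). GABA-A receptors gave 5 of 17 lower (29.4%, against 10.3% of all genes tested) and 2 higher, with a median of -0.15. The class had 2 lower without intact 3 or AAV-SIRT3 2, and 3 lower without intact 2 or 4 or AAV-SIRT3 6. Gabrb2 was at -0.46, lost without AAV-SIRT3 6 (adjusted p = 0.056). Gabrd and Gabra4, which form extrasynaptic receptors of thalamic neurons, were at 0.79 and 0.56, and both calls were lost without intact 3, that of Gabrd also with edgeR and with DESeq2. With the thalamic score as a covariate the 2 genes were at -0.04 and -0.01. Of 47 genes of synaptic vesicles and release 7 were higher (14.9%) and 5 lower (10.6%), near the shares of all genes, and 4 were higher without intact 5 or AAV-SIRT3 2, 3 or 5 and 3 lower without AAV-SIRT3 6. Among them were the active-zone scaffold Pclo at -0.39, the synapsin Syn3 at -0.56, and the small vesicle proteins Rab3a and Vamp2 at 0.21 and 0.20.

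Vessel and matrix genes fell together in part. Endothelial genes were lower in 9 of 24 and higher in 1 (median -0.19). Kdr, the main VEGF receptor, ran from 582.3 through 680.3 to 776.2 in intact and from 368.8 through 466.1 to 579.1 in AAV-SIRT3 libraries (-0.58, SE 0.099, adjusted p = 0.000936), without overlap, and the phosphatase Ptprb was at -0.53 with overlapping groups. The tight junction genes Tjp1 and Ocln were at -0.24 and -0.28, and the higher gene was Ly6c1, a surface antigen of brain endothelium, at 0.45. Collagens were lower in 11 of 43 and higher in 0 (median -0.30), including the basement membrane chain Col4a1 (-0.22) and Col6a3 (-0.53). In AAV-GFP against intact the endothelial median was 0.01 with 0 calls and the collagen median -0.10 with 1 gene lower. Without AAV-SIRT3 6, endothelial genes were lower in 6 and collagens in 16.

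Among nuclear regulators, chromatin genes were called lower more often than all genes tested (10.3%). Of 76 genes of histone methylation and chromatin remodelling 29 were lower and 3 higher (median -0.12). Kmt2a, a histone H3 lysine methyltransferase, ran from 11741 through 12057 to 12593 in intact and from 8170 through 9218 to 10425 in AAV-SIRT3 libraries (-0.38, SE 0.066, adjusted p = 0.000936), and the DNA demethylases Tet1 and Tet3 were at -0.50 and -0.31, all without overlap. Kmt2b, of the same family as Kmt2a, was at -0.27, and the actin methyltransferase Setd3 rose by 0.12. Of 373 Zfp zinc-finger genes, largely transcriptional repressors, 55 were lower (14.7%) and 19 higher (5.09%), with a median of -0.04, and the median was 0.02 after the least-squares removal of the length trend. The Zfp genes had 11 higher without intact 3 or 4 and 12 without AAV-SIRT3 5. Kinesins, which carry cargo along microtubules, were lower in 12 of 33 and higher in 0 (median -0.15), with Kif21b at -0.31 and Kif26b at -0.28, and they were lower in 6 without intact 1, AAV-SIRT3 5 or AAV-SIRT3 6.

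Cytoskeletal genes of the axon separated within a class. Of 30, 8 were higher and 7 lower. The higher ones included the small tubulin-binding proteins Stmn1 (0.32) and Stmn3 (0.26) and the ubiquitin hydrolase Uchl1 (0.25), and the lower ones the giant linkers Macf1 (-0.37) and Dst (-0.33) and the microtubule protein Map1b (-0.29). The calls of Macf1, Dst and Map1b ended under all 3 removals of the length trend, with adjusted p up to 0.362, 0.979 and 0.225 over all alternatives, and Dst was then at 0.00 by least squares. The 8 higher members had a median transcript length of 1486 bases and the 7 lower members one of 14305 bases.

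Transcript length ran with the direction of change across the whole table. The median annotated transcript was 1875 bases for genes called higher, 4913 for genes called lower and 2827 for all tested. Of genes under 1 kb, 17.6% were higher and 5.07% lower, and of genes of 8 kb or more, 0.786% were higher and 48.1% lower. The median deviation of genes of 8 kb or more from the intact mean ran from -0.03 to 0.01 in intact, from -0.31 to -0.01 in AAV-GFP and from -0.28 to -0.08 in AAV-SIRT3 libraries. The AAV-SIRT3 libraries thus lay below all intact ones, and 1 AAV-GFP library, replicate 2, lay lower than all of them. Among chromatin genes, 28 of 47 members of at least 6 kb were lower, and among complex I genes 32 of 32 members under 2 kb were higher. RNA integrity per library is not given in the sources used here, beyond a stated minimum, and its part in the trend was not tested.

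**Figure D4:**
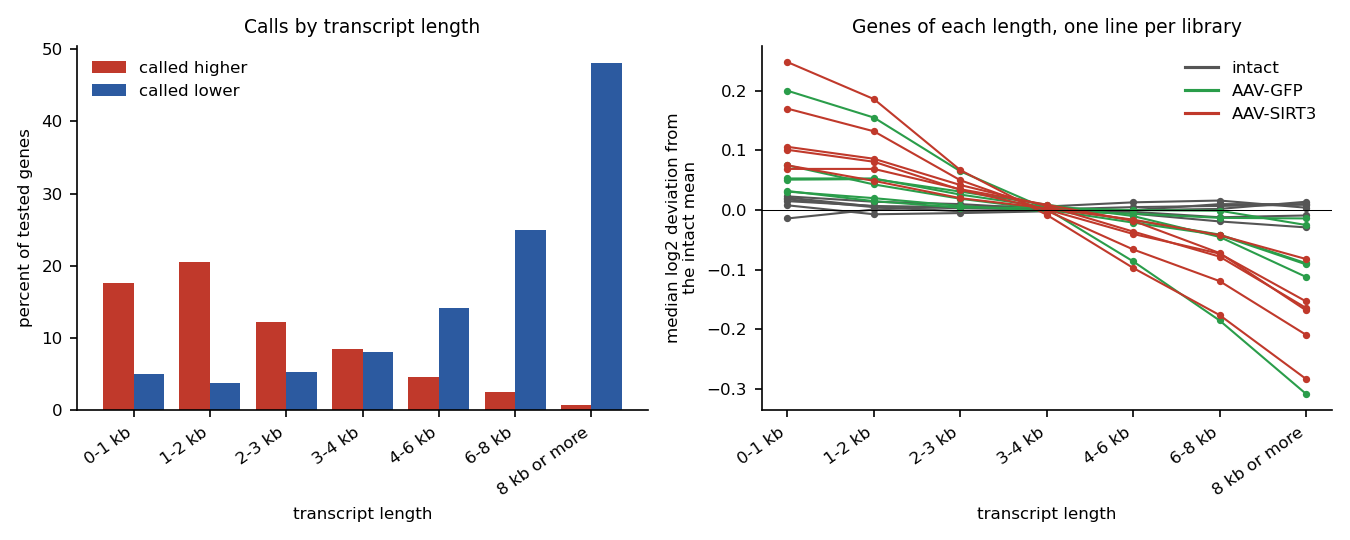
Left, percent of tested genes called higher (red) and lower (blue) by annotated transcript length. Right, the median log2 deviation from the intact mean of genes in each length bin, with a line for each of the 18 libraries, where AAV-SIRT3 lines fall from above 0 for short genes to below 0 for long genes and intact lines stay flat.

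When the trend with length was removed from each library, 2866 genes were called, 1540 higher and 1326 lower. Complex I then had 28 higher of 37 (median 0.16), complexes II to V 29 of 42 (0.19), the cytosolic ribosome 68 of 78 (0.19) and the mitochondrial ribosome 30 of 77 (0.12, 1 lower). Interferon-stimulated genes were at 0.54 as before, with 16 of 47 higher, and MHC class I genes at 0.34. Cadherins had 27 of 95 lower (-0.17), collagens 6 of 43 (-0.22) and endothelial genes 8 of 24 (-0.16). The calls of sodium, calcium and HCN channels went from 10 lower to 3 lower and 1 higher (-0.07), those of kinesins from 12 to 5 lower (-0.04), and those of chromatin genes to 11 lower and 6 higher (-0.02). Under the least-squares removal the chromatin median was 0.01. Of the named genes, Psmd13, mt-Nd6, mt-Nd4, Slc25a4, Slc25a5, Sirt1, Psmd1, Npc1, Ciita, Apoe, Lcn2, Col4a1, Tjp1, Cacna1e, Gria2, Pclo, Rab3a, Kif26b, Macf1, Dst, Map1b, Kmt2b, Mfrp, Rpl24, Psmb9 and Pcdhb1 lost their calls under at least 1 of the 3 removals. The removal takes out any change that runs with length, whatever gave rise to it.

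**Figure D5:**
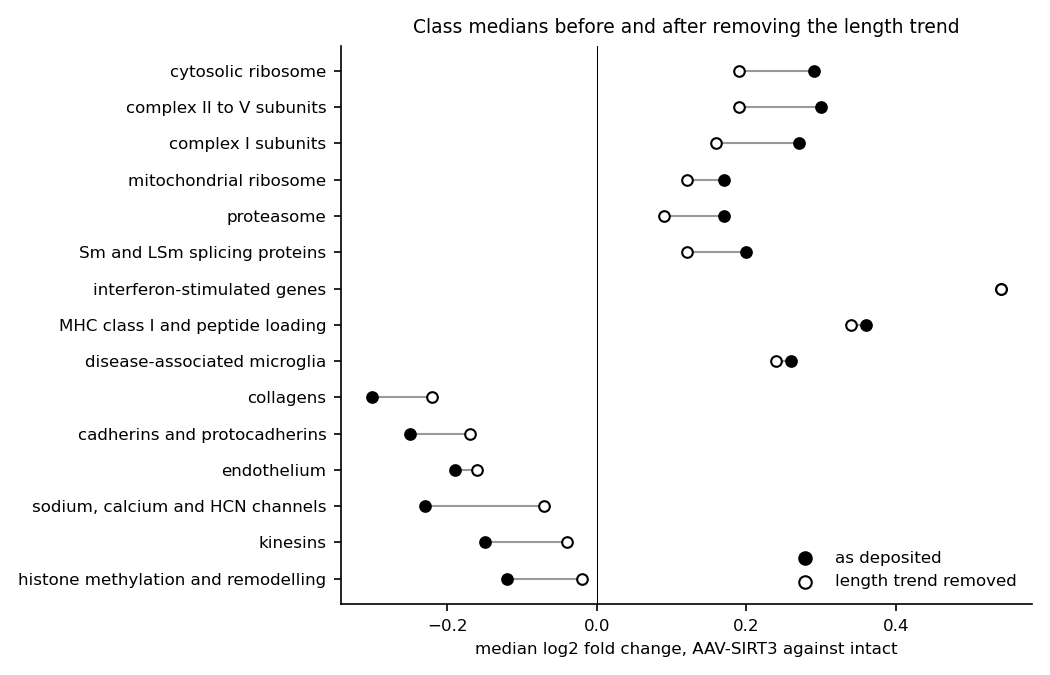
Median log2 fold change of 15 classes in the values as deposited (filled) and after removal of the length trend (open). Classes above 0 stay above it, the proteasome moving to 0.09 and interferon-stimulated genes staying at 0.54, and the medians of kinesins and chromatin genes move to -0.04 and -0.02.

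Promoters of the respiratory chain and ribosomal genes were searched for other motifs because their members moved together. The NRF1 element, searched as GCGCA, any base and GCGC and named for a regulator of nuclear genes for mitochondria, was present on either strand in 20.6% of 34 complex I genes, 30.3% of 33 genes of complexes II to V and 19.1% of 68 mitochondrial ribosome genes, against 9.45% of all tested genes with an entry. It was present in 13.5% of genes called higher and 9.1% of genes called lower. The 7 complex I genes with a match had a median of 0.28 and the 27 without one 0.25. In complexes II to V the 10 genes with a match had a median of 0.22 and the 23 without one 0.30, and in the mitochondrial ribosome the 13 with a match had 0.17 and the 55 without one 0.18. Examples from Ndufa5, Ndufa11 and Mrpl12 are printed with the match in capitals.
Ndufa5, chr6:24527687-24527736, minus strand: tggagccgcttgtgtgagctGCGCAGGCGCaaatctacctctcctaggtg
Ndufa11, chr17:56717682-56717731, plus strand: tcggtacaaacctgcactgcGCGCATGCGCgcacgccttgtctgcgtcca
Mrpl12, chr11:120484536-120484585, plus strand: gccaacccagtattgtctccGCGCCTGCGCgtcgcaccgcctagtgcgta

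The CGCG element, searched as TCTCG directly followed by its reverse complement CGAGA, which is bound by the BANP protein, was searched because Banp led the rises, a choice made after its value was seen. It was present in 6 of 57 cytosolic ribosome genes (10.5%), against 0.972% of all tested genes with an entry, 1.1% of genes called higher and 1.61% of genes called lower. The 6 ribosomal genes with a match had a median of 0.30 and the 51 without one 0.29. Rps6 (0.26) and Rpl12 (0.29) carry it as follows. The cAMP element TGACGTCA was present in 3.17% of all tested genes, 4% of genes called higher and 2.6% of genes called lower.
Rps6, chr4:86857389-86857438, minus strand: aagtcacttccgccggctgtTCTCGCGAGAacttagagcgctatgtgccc
Rpl12, chr2:32961638-32961687, plus strand: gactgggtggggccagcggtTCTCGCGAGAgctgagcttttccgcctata

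Few markers of nigral neurons were called. Of 23 genes of dopaminergic neurons 0 were called (median -0.08), and edgeR and DESeq2 also called 0. With the thalamic score as a covariate the median turned to 0.15 with 1 gene higher. Th, the rate-limiting enzyme of dopamine synthesis, ran from 4623 through 5679 to 6637 in intact and from 5448 through 5763 to 5938 in AAV-SIRT3 libraries (0.02, adjusted p = 0.908), and Slc6a3, the dopamine transporter, from 9283 through 11103 to 12867 and from 7743 through 10656 to 11081 (-0.11, adjusted p = 0.457). Both overlapped, and the direction of Th changed with the scaling. In AAV-GFP against intact the class median was -0.28 with 4 genes lower. Of 13 genes of GABAergic nigral neurons 1 was called, the calcium buffer Pvalb, which rose by 0.43 without overlap. Of 21 immediate early genes 2 were higher (9.52%) and 1 lower (4.76%), not above the 11.3% and 10.3% of all genes tested. Sgk1, a kinase induced by glucocorticoids and also found in oligodendrocytes, rose by 0.98. It ran from 1783 to 3718 in intact and from 3768 to 11683 in AAV-SIRT3 libraries. The transcription factor Jun fell by 0.33.

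Genes of neighbouring tissue differed between libraries of 1 group as much as between groups. Thalamic genes were higher in 9 of 13 (median 0.65), among them Lef1 (0.75), Tcf7l2 (0.65), Ramp3 (0.88) and Gbx2 (0.96), and the medians were 0.68 in AAV-GFP against intact and -0.02 against AAV-GFP. The class level ran from -0.56 to 0.66 in intact and from 0.38 to 0.97 in AAV-SIRT3 libraries, and the groups overlapped. The thalamic score of a library is the mean log2 value of the tested genes of this class. Lef1, Tcf7l2, Ramp3 and Gbx2 are part of the score, so the loss of their calls with it was fixed in advance. With the thalamic score as a covariate 1724 genes were called, 922 higher and 802 lower. Complex I then had 24 higher of 38 (median 0.27), the cytosolic ribosome 66 of 78 (0.31), interferon-stimulated genes 18 of 48 (0.61) and cadherins 21 lower of 96 (-0.26). Collagens went from 11 to 2 lower (-0.20), kinesins from 12 to 3 lower (-0.17), chromatin genes from 29 to 18 lower (-0.12), import genes from 13 to 4 higher (0.09) and cholesterol genes from 6 to 1 lower (-0.01). The calls of the named genes Psmd13, Ric8a, Adgrf4, mt-Nd6, mt-Nd4, Cox6a2, Timm10, Slc25a4, Slc25a5, Sirt1, Psmd1, Psmb9, Rpl24, Snrpd1, Manf, Npc1, Lss, Samhd1, Nlrc5, Ciita, Cd52, Tyrobp, Cd55, Lcn2, Ly6c1, Col6a3, Kcna1, Kcnj13, Gria2, Gabrd, Gabra4, Syn3, Vamp2, Map1b, Nlgn3, Pcdhb1, Setd3, Lef1, Tcf7l2, Ramp3, Gbx2, Gh and Prl were lost with the covariate. Anterior pituitary genes were lower in 4 of 7 (median -2.61), with Pomc, the precursor of ACTH, from 196.7 to 3680 in intact and from 31.43 to 542.7 in AAV-SIRT3 libraries, and the hormones Gh and Prl at -3.16 and -3.30. The call of Prl was lost without intact 1 to 5 or AAV-SIRT3 1 or 5 (adjusted p up to 0.26). Choroid plexus genes were lower in 3 of 15 (median -0.95), and a summed level of 5 markers reached 49011 in an intact library. Mfrp, a membrane protein of that epithelium, was at -2.25, a call lost without intact 1, 2 or 4 or AAV-SIRT3 1 to 5 (adjusted p up to 0.109), and leaving out 1 library gave from 0 to 4 calls in the class. These levels also overlapped between the groups.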

How the data were processed

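Poly-A RNA libraries (TruSeq stranded, paired reads of 100 bp, per the labels) of 18 mice were used, 6 per group. The deposited table holds, by its name, a signal made by the authors: HTSeq counts of reads per gene divided by DESeq2 size factors. HISAT2 2.1.0, DESeq2 1.34.0 and the build mm10 are named in the submitters' processing notes. Whole reads could be recovered in 100% of values, which gave 47.2 to 64.7 megareads per library, and replicates of a group differed beyond counting error (chi-square per degree of freedom 8.27 to 36.6). A row that names no gene, at most 2.89e-04% of a library, was left out.

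Values were tested as log2(value + 1) with limma 3.58.1 (R 4.3.3) in 1 fit of the 3 groups with 15 residual degrees of freedom, so a fold change of a gene with few reads is understated. Of 55269 genes, the 19442 at 10 or more in at least 6 of 18 libraries were tested. A gene is called at a Benjamini-Hochberg adjusted p under 0.05. On simulated data, 157 of 200 changed genes among 19442 were called, with 6 false calls. Of those changed by 0.5 on the log2 scale 63% were called, with 78.6% at 1 and 98.4% at 2. In the real data the median log2 fold change was 0.22 for genes called higher and -0.31 for genes called lower. Detection of changes smaller than 0.5 was not tested. Alternatives included edgeR 4.0.16 and DESeq2 1.42.0 on recovered reads, other scalings, filters and pseudocounts, a replicate block, a thalamic score as covariate and removal of trends with transcript length. Lengths and positions come from GENCODE M21 (GRCm38), matched by symbol for 18855 tested genes. Promoter windows come from RefSeq (GRCm38.p6), for 13381 tested genes.

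The members and the gene lists were chosen with earlier results of these data known. Named genes are the 10 rises and 10 falls with the smallest p among called genes with a mean of at least 50, at least 1.5-fold and without overlap, leaving out gene models without a name, the 4 called members of smallest p in each direction of a class with a mean of at least 50, Sirt3, Psmd13, Ric8a, Th, Slc6a3, Gfap and Aif1, and class extremes. Of the class members so eligible, those printed are a choice made after their values were seen, as were the class extremes. The BANP motif was added after the value of Banp was seen, and the printed sequences were picked because they hold the motif they show. A class of histone genes was dropped, and a member renamed, after the symbols of the table were seen. Class members absent from the test, 96 in all, are not counted among those tested. A gene that the rule would name is not reported here.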

Additional observations from a re-analysis of the deposited data

Results flagged for a closer look

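In 42 of 414 groups of 6 values, 1 library lay far from the other 5 by Dixon's criterion, where chance gives about 1 in 20 groups, or 20.7. AAV-SIRT3 replicate 6 accounted for 24 of the 42. It was highest for the interferon genes Ifit3 (2551), Oasl2 (1896), Ifi27l2a (516.5), Usp18 (483.8), Bst2 (464.7) and Isg15 (299.3), and for the antigen presentation genes B2m (13103), H2-D1 (7415), Psmb10 (1902), Psmb8 (252), Nlrc5 (205.9) and H2-Q7 (56.26). Its class level was 1.32 for MHC class I, 0.632 for complement and 0.51 for disease-associated microglia. It was also highest for Ctss (7676), C1qa (4915), C1qb (4641), Cd52 (234), Cst7 (50.63), Stmn3 (30319), Rab3a (32990) and Tomm22 (3780), and lowest for Slc6a3 (7743).

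Intact replicate 1 was highest for Kcna1 (7553), Dst (48547), Mobp (137205) and Cst7 (13.72) and lowest for Nlgn3 (2047). Its class level was 0.196 for myelin genes, 0.239 for nigral GABAergic genes and -0.385 for immediate early genes. Intact replicate 2 was highest for Mfrp (450.5), Kcnj13 (221.2) and the choroid plexus level (2.83). Intact replicate 3 was highest for Ctss (4859), Gria2 (22627) and the homeostatic microglia level (0.106), and intact replicate 4 for Pomc (3680). AAV-SIRT3 replicate 2 was highest for Adgrf4 (129.6), and AAV-SIRT3 replicate 4 had the lowest levels of the vacuolar ATPase (0.076) and of myelin genes (-0.089). The cause of these deviations was not tested.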

How the results depend on the processing

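Of 49 classes, 15 had a median that changed sign under at least 1 alternative, among them Zfp, chromatin, potassium channel, fatty acid oxidation and dopaminergic genes. With the thalamic score as a covariate 1724 genes were called (922 higher, 802 lower, 260 at least 1.5-fold), and at an adjusted p under 0.01 there were 1838 (969, 869 and 281). Removal of the length trend left 1326 lower genes, and a least-squares removal 1009. The robust removal, which keeps the median of each library, replaced the least-squares one after the output of the latter had been seen, and both are given. Among genes with a mean of at least 50, 339 were at least 1.5-fold. Of the 4214 genes called, 1582 were called again with the covariate and 2430 after removal of the length trend.

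Leaving out 1 library gave 3279 (without AAV-SIRT3 replicate 5) to 4633 (without AAV-GFP replicate 2) calls, 1693 to 2381 higher, 1575 to 2252 lower and 517 to 683 at least 1.5-fold. Of 158 genes followed, 152 passed the threshold, and 95 of those passed it under every alternative with a value, the threshold of 0.01 aside. There were 33 alternatives, but some genes had values in fewer, such as Marchf11 and Atp5md with 30. Over scalings the median of all genes moved by at most 0.012.

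Single values changed sign as follows, some of them called as deposited (Gabrd, Gabra4, Dst and mt-Nd4). Sirt3 was at -0.006 with length and GC trends removed. Th was at -0.001 with quantile normalisation and with edgeR, at -0.047 and -0.059 with length and with length and GC trends removed, and from -0.043 to 0.062 when 1 library was left out. With the covariate Slc6a3 was at 0.041, Gfap at 0.168, Gabrd at -0.037 and Gabra4 at -0.012. Gfap ran from -0.108 to 0.016 when 1 library was left out, and mt-Nd4 was at -0.048 with quantile normalisation. Under the least-squares removal Dst was at 0.002 and the chromatin median at 0.010. Ndufb2 was at 0.032 with the covariate, at 0.027, 0.040 and 0.065 under the 3 removals, and from -0.019 to 0.012 when 1 library was left out. The cause of these changes was not tested.

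The replicate block gave 3923 calls (2015 higher, 1908 lower, 604 at least 1.5-fold). Same-numbered intact and AAV-SIRT3 libraries showed little shared deviation: their correlations ran from -0.06 to 0.18, and 1 of 6 was over 0.1. Only 1 of 6 AAV-SIRT3 libraries correlated best with its own number. Whether the numbers pair the mice cannot be told from these values.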
